A study of Oryza sativa with 8 samples.

Results

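Rice root tips contained 52 genes, of 57359 in the table, that were close to silent in every library without ethylene and carried reads in every library with it. The genes were chosen by measured levels: under 0.5 CPM (a gene's counts per 1000000 counts of its library) in each of the 4 libraries without ethylene, and 2 CPM or more in each of the 4 with ethylene. The rise with ethylene is therefore a description of how the genes were picked and is given without a test. Applied in the opposite direction, the same thresholds found 0 genes that were on without ethylene and off with it.

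The libraries came from poly(A) RNA of root tips of dark-grown rice seedlings of the variety Dongjin. After 2 days of germination at 37 °C, seedlings spent 3 days at 28 °C in closed boxes with different supplies of calcium chloride. There were 4 groups of 2 libraries, labelled control (replicates 1 and 2), calcium (1 and 2), ethylene (3 and 4) and calcium and ethylene (2 and 3), and ethylene gas was given at 2 ppm. All groups share the variety, the tissue and the darkness. The control and calcium groups received air, going by the series' description. The labels state neither the calcium concentrations nor which group had low and which had normal calcium, and the groups are called by their labels here. Whether the 2 libraries of a group are separate cultures is not stated, so p-values reflect only how far these libraries differ, possibly for technical reasons. Each library held between 19099091 and 25907083 counts. A level of 0.5 CPM was thus 9.55 to 13.0 counts and 2 CPM was 38.2 to 51.8 counts.

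Ethylene is a gaseous plant hormone. Its receptors sit mainly in the endoplasmic reticulum membrane and hold back signalling until the hormone binds. Signalling then passes through EIN2 to transcription factors of the EIN3/EIL family, which switch on response genes in the nucleus. In the dark, ethylene shortens rice roots while it promotes growth of the coleoptile. None of the 52 IDs, and none of the 57359, matched a RefSeq table of 39387 rice genes, and the file pairs no ID with a name. Genes are therefore given by ID with no function, the receptors and other pathway genes could not be looked up, and root markers could not be checked. In bulk tissue, more cells that express a gene and more RNA per cell cannot be told apart.

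Without ethylene the 52 genes together held 135 and 116 counts in the control libraries and 76 and 187 in the calcium libraries. With ethylene they held 15109 counts in ethylene replicate 3, 21078 in replicate 4, and 8620 and 9058 in calcium and ethylene replicates 2 and 3. The sum was 5.93 ± 0.771 CPM (SD, n = 2) in control, 5.76 ± 2.96 in calcium, 802 ± 15.9 in ethylene and 439 ± 40.7 in calcium and ethylene. The control and calcium sums differed by less than the spread between the calcium libraries. The genes were modest even when on: their mean over the 4 ethylene libraries ran from 2.66 to 49.8 CPM with a median of 7.60, against a median of 20.4 over all 19830 genes that reached 2 CPM in those 4 libraries. Of the 52, 19 averaged 10 CPM or more, 17 averaged 5 to 10 and 16 averaged under 5.

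**Figure D1:**
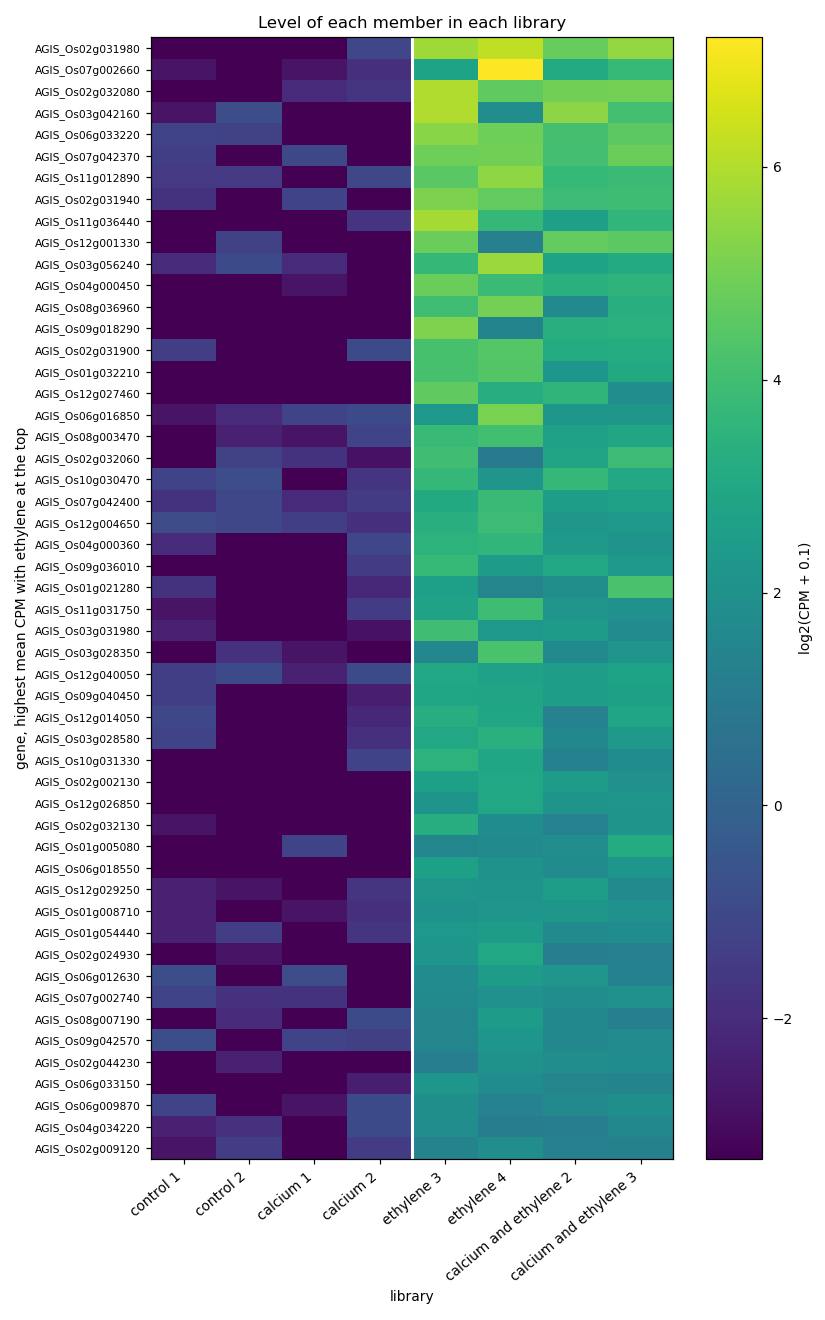
Each row is one of the 52 genes and each column a library, coloured by log2(CPM + 0.1), with the white line between libraries without and with ethylene. All 52 genes are dark on the left and lighter on the right, as the choice of genes fixes, and single bright or dim cells stand out in the column of ethylene replicate 4, such as 149 CPM for AGIS_Os07g002660 near the top.

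In the libraries without ethylene, 107 of the 208 values were 0, 16 were 1 count, 19 were 2 or 3 and 66 were 4 or more, with a maximum of 10. Counts often stood in 1 library of a group only: 10 genes had 0 in one control library and 5 or more in the other, and 18 did so in the calcium libraries. A count in all 4 libraries was found for 4 genes. Another 7 genes had no count in any library without ethylene, which 3 counts over the 4 libraries would bound at 0.0345 CPM for counting error. Amplified reads are not independent molecules, so this bound covers counting error only.

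The 7 genes without a single count were AGIS_Os08g036960, AGIS_Os09g018290, AGIS_Os01g032210, AGIS_Os12g027460, AGIS_Os02g002130, AGIS_Os12g026850 and AGIS_Os06g018550. The first had 15.9 and 32.7 CPM in ethylene and 3.23 and 10.1 in calcium and ethylene, a mean at least 448-fold higher than the bound over the 4 libraries without ethylene. AGIS_Os09g018290 had 36.5 and 2.62 CPM in ethylene and 9.70 and 10.5 in calcium and ethylene, at least 430-fold higher. AGIS_Os01g032210 had 17.6 and 21.3 CPM in ethylene and 4.57 and 8.31 in calcium and ethylene, at least 375-fold higher. In all 3 genes the libraries with ethylene differed severalfold among themselves, and in AGIS_Os09g018290 replicate 4 was the lowest of the 4. For the 7 genes these lower bounds ran from 131-fold to 448-fold. For the 39 genes with 4 or more counts without ethylene, the ratio of the mean with ethylene to the pooled level without ran from 12.2 for AGIS_Os09g042570 to 644 for AGIS_Os07g002660, with a median of 65.5. The ratio of 644 rested mostly on ethylene replicate 4, at 149 CPM against 6.86 to 13.4 in the other libraries with ethylene. It was set over 6 counts without ethylene. The other 6 genes had 1 to 3 counts in all and are given no ratio.

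Genes next to the thresholds show how narrow the choice was. AGIS_Os06g012630 and AGIS_Os09g042570 stayed in with 10 counts, or 0.480 CPM, in control replicate 1. AGIS_Os03g010620 and AGIS_Os07g003800 stayed out with 11 counts, or 0.528 CPM, in that library, although their counts with ethylene ran from 165 to 1482 and from 61 to 239. At the upper threshold, AGIS_Os02g032060 stayed in with 2.01 CPM and AGIS_Os04g034220 with 2.05 CPM in ethylene replicate 4. AGIS_Os06g041810 stayed out with 1.99 CPM in ethylene replicate 3. AGIS_Os04g010610, which had no count without ethylene, stayed out with 1.91 CPM in calcium and ethylene replicate 3. Under 0.5 CPM without ethylene, 402 further genes reached 2 CPM in 1 to 3 of the ethylene libraries. Of the 143 that reached it in 3, 107 fell short in ethylene replicate 4 alone. Leaving that library out of the rule gave 159 genes in place of 52.

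The choice was also made at each calcium supply alone, over libraries that the other does not use. Against control, 128 genes were on in ethylene, and against calcium, 260 genes were on in calcium and ethylene. By construction the 52 genes are those on both lists, so their being shared is no separate support for them. They make up 40.6% of the first list and 20% of the second. Whether this overlap exceeds that of unrelated lists was not tested. In the opposite direction 6 and 7 genes were found. Of the genes on only against control, 61 fell under 2 CPM in a calcium and ethylene library and 28 reached 0.5 CPM in a calcium library. Of those on only against calcium, 163 fell under 2 CPM in an ethylene library and 84 reached 0.5 CPM in a control library. A gene can miss both thresholds.

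Compared per length (CPM per kilobase, CPM/kb, so that long and short genes can be set side by side), mean levels with ethylene ran from 0.717 CPM/kb for AGIS_Os09g042570, the longest of the genes at 4716 bases, to 56.4 CPM/kb for AGIS_Os12g001330, the shortest at 351 bases. The median was 5.51 CPM/kb, against 11.3 CPM/kb over the genes of 2 CPM or more in all 4 libraries. The 5 highest per length were AGIS_Os12g001330, AGIS_Os07g002660 (45.5 CPM/kb), AGIS_Os03g042160 (36.0), AGIS_Os02g031980 (28.9) and AGIS_Os03g056240 (21.3). These ranks rest on unequal libraries, as the values of each gene show.

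AGIS_Os12g001330 had 27.7 CPM in ethylene replicate 3, 2.32 in replicate 4, and 25.5 and 23.6 in calcium and ethylene. Its only counts without ethylene were 7 in control replicate 2. Replicate 4 stood about an order of magnitude under the other 3 libraries, which lay close together. AGIS_Os07g002660 had 6.86 CPM in ethylene replicate 3, 149 in replicate 4, and 8.66 and 13.4 in calcium and ethylene. Here replicate 4 was the one high library, 21.7 times replicate 3, and it held 18.3% of that library's counts for the 52 genes. AGIS_Os03g042160 had 62.9 CPM in replicate 3, 3.47 in replicate 4, and 41.1 and 16.7 in calcium and ethylene, so that replicate 4 was again the lowest, with replicate 3 18.1 times higher. AGIS_Os02g031980 had 52.7 and 74.0 CPM in ethylene and 26.9 and 45.7 in calcium and ethylene, and 9 counts in calcium replicate 2 were its only ones without ethylene. AGIS_Os03g056240 had 13.0 and 49.8 CPM in ethylene and 6.90 and 8.62 in calcium and ethylene, both below both ethylene libraries.

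The libraries of a group lay within 1.5-fold for 21 of the 52 genes in ethylene (40.4%, against 79.6% of the 19830 genes of 2 CPM or more in all 4) and for 33 in calcium and ethylene (63.5%, against 83.4%). The 2 ethylene libraries were 3-fold or more apart in 10 of the 52 (19.2%), 4 higher and 6 lower in replicate 4, against 1.85% of the 19830 genes. The 2 calcium and ethylene libraries were 3-fold or more apart in 4 of the 52 (7.69%), against 0.469%. The median absolute log2 ratio was 0.74 between the ethylene libraries and 0.35 between the calcium and ethylene libraries, against 0.28 and 0.27 over the 19830 genes. The 52 genes have lower counts than those genes, and the part of count level in this spread was not tested. In 8 of the 10 genes, replicate 4 lay at least 2-fold beyond each of the other 3 libraries with ethylene, 4 above and 4 below. These 10 were picked by the distance between the ethylene libraries, which favours an ethylene library as the outermost. The matching share among the 19830 genes was not worked out.

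Across the 52 genes, log2 CPM in replicate 4 had Pearson correlations of 0.36 to 0.44 with the other 3 libraries with ethylene, while those 3 correlated with each other at 0.77 to 0.80. These describe 52 genes chosen for a minimum level in all 4 libraries, which narrows their range. Over the 19830 genes the correlations were 0.910 to 0.949 with replicate 4 and 0.960 to 0.977 among the others. The highest level was in ethylene replicate 4 for 25 genes and in replicate 3 for 21, and in a calcium and ethylene library for 6. The lowest was in calcium and ethylene replicate 2 for 25 genes. The 4 libraries lay within 2-fold for 16 genes (30.8%, against 78.9% of the 19830), most narrowly for AGIS_Os01g008710, whose highest level was 1.19 times its lowest.

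**Figure D2:**
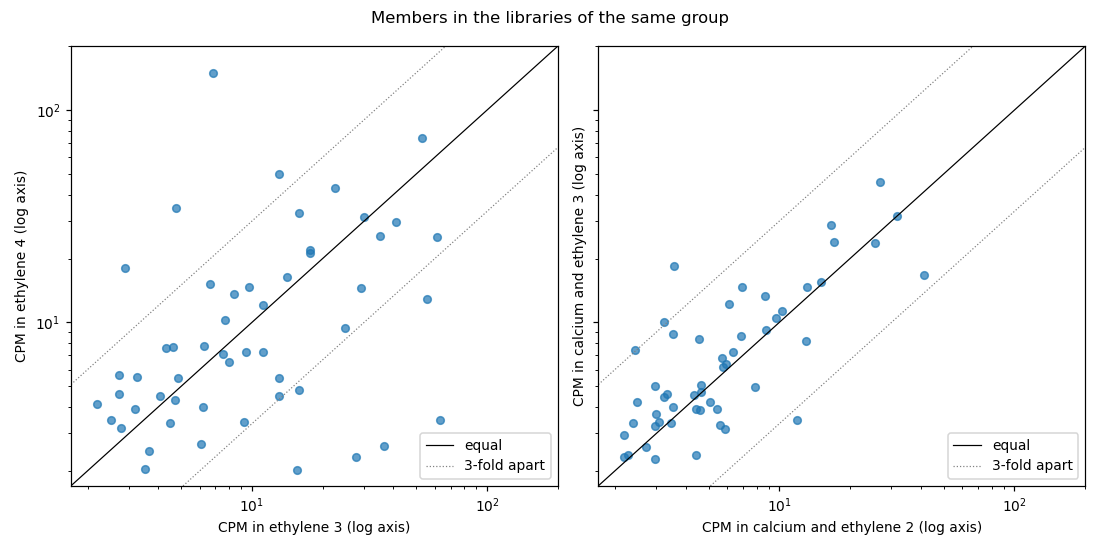
Each point is one of the 52 genes, with its CPM in the libraries of a group on log axes, ethylene replicates 3 and 4 at left and calcium and ethylene replicates 2 and 3 at right. Points beyond the dotted lines are 3-fold or more apart: 10 at left, on both sides of the line of equality, and 4 at right.

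The comparison of calcium and ethylene with ethylene asked whether the calcium supply went with a different level once the genes were on. The rule sets the same minimum in these 4 libraries and does not use their difference. That minimum did not act evenly on the libraries. Of the 143 genes low without ethylene that reached it in 3, 107 fell short in ethylene replicate 4 and 2 in replicate 3. A further 25 fell short in calcium and ethylene replicate 2 and 9 in replicate 3. The part of this cut in the comparison was not tested. The 52 genes were lower as a group in the calcium and ethylene libraries: their summed level was 410 and 468 CPM there and 791 and 814 CPM in ethylene, and the groups did not overlap. Without AGIS_Os07g002660 the sums were 401 and 454 against 784 and 665 CPM. The ratio of the summed ethylene mean to the calcium and ethylene mean was 1.83, and 1.69 without that gene.

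Gene by gene, 43 of the 52 had a lower mean in calcium and ethylene (82.7%, against 41.8% of the 19830 genes), and 19 had a mean of 0.5 times that in ethylene or less (36.5%, against 3.13%). The median ratio of means was 0.605, against 1.05 over the 19830 genes. Both calcium and ethylene libraries lay below both ethylene libraries for 25 of the 52 genes, against 18.4% of the 19830, and above both for 1, against 25.3%. With TMM scaling these were 26 and 0 of the 52, and 22.9% and 19.7% of the 19830. Without ethylene replicate 4, both calcium and ethylene libraries lay below replicate 3 for 39 of the 52 genes, against 25.8%, and above it for 7, against 36.3%, with a median ratio of 0.654. Without replicate 3 they lay below replicate 4 for 32 of the 52, against 34.1%, and above it for 10, against 44.9%, with a median ratio of 0.684. Without calcium and ethylene replicate 2 the remaining library lay below both ethylene libraries for 32 of the 52, against 32.1% of the 19830. It lay above both for 4 of the 52, against 35.2%. Without calcium and ethylene replicate 3 the numbers were 29 below, against 30.4%, and 3 above, against 48.6%. Of the 42 genes with ethylene libraries under 3-fold apart, 22 had both calcium and ethylene libraries below both, against 18.6% of the 19464 genes that met the same limit. These shares describe the lists and are not a test that the 52 genes differ from others.

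No gene passed edgeR's quasi-likelihood test in this comparison at an adjusted p under 0.05, neither among the 52 nor among the 27008 tested (0%). The lowest adjusted p among the 52 was 0.63 by edgeR. All 52 passed the filter on low counts. At an unadjusted p under 0.05 there were 12 of the 52, each lower in calcium and ethylene, against 7.69% of all genes tested in either direction. This count changed with the libraries used. It was 3 of the 52 without calcium and ethylene replicate 2 (2.46% of all genes). It was 4 without calcium and ethylene replicate 3 (8.04%) and 7 without ethylene replicate 4 (2.23%). Without ethylene replicate 3 the count did not fall, but fewer of its genes were lower in calcium and ethylene and some were higher. The share of all genes then rose as well. With only the 4 libraries with ethylene the count was 17, each lower, against 7.90% of all genes. Leaving out 1 of these 4 sets 1 library against 2. In 2 of the 3 lower counts the share of all genes fell too. In the other, without calcium and ethylene replicate 3, the share did not fall. How far the count rested on single libraries was not tested apart from this change in group size. DESeq2 called 0 of the 52, with 15 given no adjusted p, and 0.629% of all genes. The lowest adjusted p among the 52 by DESeq2 was 0.063, for AGIS_Os03g056240. The median log2 fold change over the 52 was -0.80, with a median SE of 0.69 per gene, and over all genes tested it was 0.0038. Fold changes ran from -2.91 to 1.30 on the log2 scale and 45 of the 52 were negative. A 2-fold or larger fitted decrease was seen in 21 of the 52 and in 6.14% of all genes. Leaving out ethylene replicate 3 gave 3 calls among the 52 (1.21% of all 28283 genes then tested were called). Replicate 4 is then alone in its group and is assumed to vary like the libraries of the other groups. Omitting the filter on low counts gave 1 call (0.326% of 35620 genes).

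**Figure D3:**
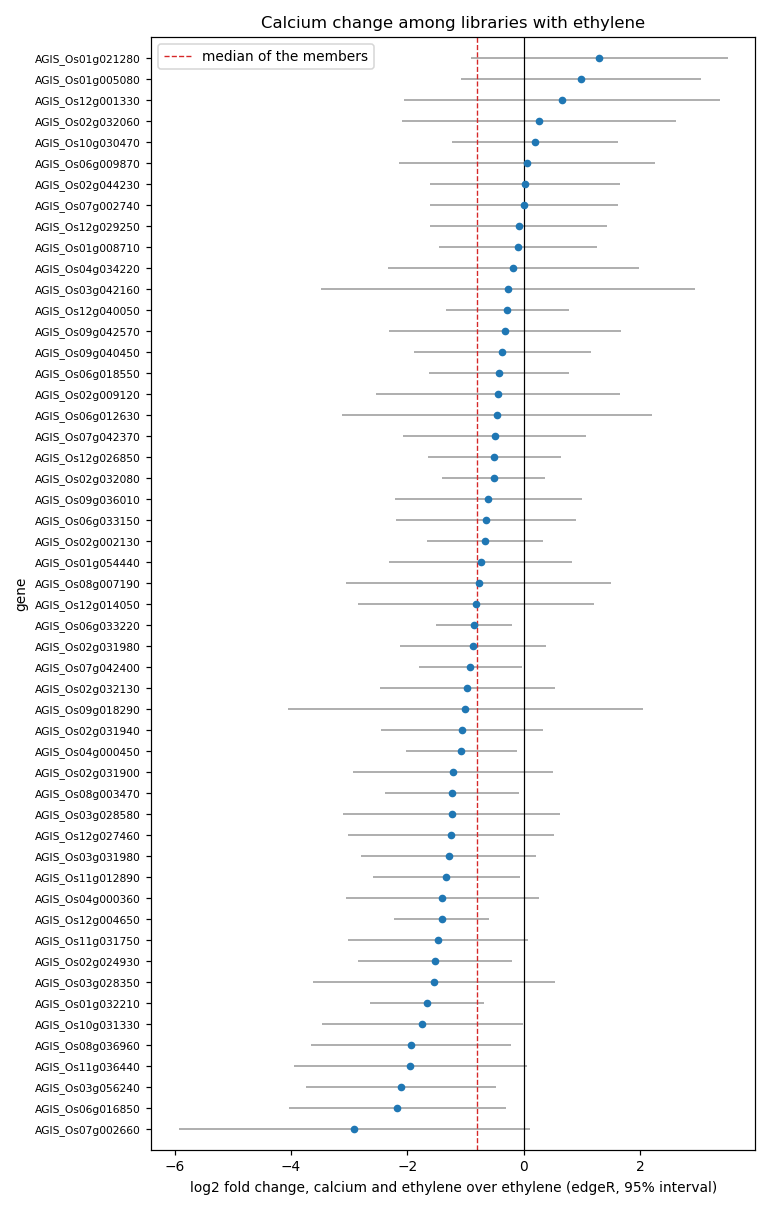
Each point is the log2 fold change of one of the 52 genes in calcium and ethylene over ethylene. Bars are 95% intervals worked out from the edgeR F-test, and the dashed line is the median fold change of -0.80. Most points lie left of 0, while 40 of the 52 intervals reach across it.

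In the 3 genes with the lowest fold changes ethylene replicate 4 was the highest library; in the next, AGIS_Os11g036440 (-1.95), replicate 3 was higher, at 55.8 against 12.9 CPM. AGIS_Os07g002660, with the values above, had a log2 fold change of -2.91 (SE 1.24, edgeR adjusted p = 0.64). It was -3.83 without replicate 3 (adjusted p = 0.0054) and 0.65 without replicate 4, so its sign rested on that library. AGIS_Os06g016850 had 4.76 CPM in replicate 3, 34.6 in replicate 4, and 4.66 and 4.70 in calcium and ethylene, with a log2 fold change of -2.17 (SE 0.80, edgeR adjusted p = 0.63). Replicate 3 was level with the calcium and ethylene libraries and replicate 4 was 7.27 times higher. Without replicate 3 its log2 fold change was -2.97 (edgeR adjusted p = 0.015), and without replicate 4 it was -0.070. AGIS_Os03g056240 had -2.11 (edgeR adjusted p = 0.63) with all libraries, -2.76 without replicate 3 (adjusted p = 0.044) and -0.78 without replicate 4. The adjusted p-values without replicate 3 set replicate 4 alone against 2 libraries, so that the spread behind them comes from the other groups. AGIS_Os01g032210 did not depend on replicate 4 in this way: its ethylene libraries were 1.21-fold apart, both above both calcium and ethylene libraries, with a log2 fold change of -1.66 (SE 0.41, edgeR adjusted p = 0.63). It was the one gene called without the filter on low counts (adjusted p = 0.030). Over the 14 alternatives the adjusted p of each of these 4 genes reached 1 at the highest, and the values just given were the lowest.

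In the other direction, AGIS_Os01g021280 had 6.07 and 2.66 CPM in ethylene and 3.57 and 18.4 in calcium and ethylene, with a log2 fold change of 1.30 (SE 0.94, edgeR adjusted p = 0.71). Its groups overlapped, and without calcium and ethylene replicate 3 the value was -0.42. AGIS_Os01g005080 had 2.78 and 3.16 CPM in ethylene and 3.52 and 8.78 in calcium and ethylene. It was the one gene with both calcium and ethylene libraries above both ethylene libraries, with a log2 fold change of 0.99 (SE 0.88, edgeR adjusted p = 0.76). The value was 0.11 without calcium and ethylene replicate 3 and 1.53 without replicate 2.

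Some of the genes sat close together by ID. The IDs carry a chromosome number and a running number that rose by 10 from row to row for 99.98% of rows, so the number of places between IDs is used here as a measure of nearness; no genome coordinates were used. Of the 52, 14 had another of the 52 within 10 places (26.9%), against 1.43% of the other genes of 2 CPM or more in all 4 libraries with ethylene. Within 5 places it was 8 (15.4%, against 0.688%) and within 50 places 16 (30.8%, against 7.55%). The 14 genes formed 5 runs, 1 of 6 genes and 4 of 2. The chromosome numbers of the 52 were 2 for 10 genes, 12 for 7, 6 for 6, 1 and 3 for 5 each, 7 and 9 for 4 each, 4, 8 and 11 for 3 each, 10 for 2 and 5 for none. Chromosome 12 holds 13.5% of the 52 and 5.17% of the 19830 genes, and chromosome 2 holds 19.2% and 11.5%.

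The run of 6 lay on chromosome 2 over 24 places and held 22.4% of the summed level of the 52 genes in the libraries with ethylene. Together its genes had 0.528 and 0.325 CPM in control, 0.675 and 1.05 in calcium, 192 and 152 in ethylene and 91.7 and 121 in calcium and ethylene, where both libraries lay below both of ethylene. AGIS_Os02g031980, described above, was the highest. AGIS_Os02g032080 had 61.4 and 25.2 CPM in ethylene and 31.6 and 31.8 in calcium and ethylene. AGIS_Os02g031940 had 35.0 and 25.4 CPM in ethylene and 15.0 and 15.5 in calcium and ethylene.

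AGIS_Os02g031900 had 17.6 and 21.8 CPM in ethylene and 8.75 and 9.24 in calcium and ethylene. AGIS_Os02g032060 had 15.6 and 2.01 CPM in ethylene and 6.95 and 14.7 in calcium and ethylene. AGIS_Os02g032130 had 9.27 and 3.40 CPM in ethylene and 2.47 and 4.23 in calcium and ethylene, and a single count, in control replicate 1, without ethylene. Both calcium and ethylene libraries were below both of ethylene for 3 of the 6 genes, as for 18.4% of the 19830, and overlapped them for the other 3. In those other 3, ethylene replicate 4 was well below replicate 3.

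Among the other 18 IDs of that window, 11 had no count in any library. AGIS_Os02g032010 had 63.4 and 27.6 CPM in ethylene and 28.6 and 33.2 in calcium and ethylene, and missed the choice through 0.790 CPM in control replicate 2. AGIS_Os02g032090 had 0.048 and 1.02 CPM in control, 3.57 and 0.672 in calcium, 0.052 and 0.193 in ethylene, and 0.333 and 0.103 in calcium and ethylene. Of the libraries without ethylene, 3 lay above all 4 with it. Control replicate 1 was level with ethylene replicate 3, at 1 count each, and below the other libraries with ethylene. If neighbouring genes of a run are near-identical copies, their reads could not be told apart by counting, and the sequences were not analysed here.

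**Figure D4:**
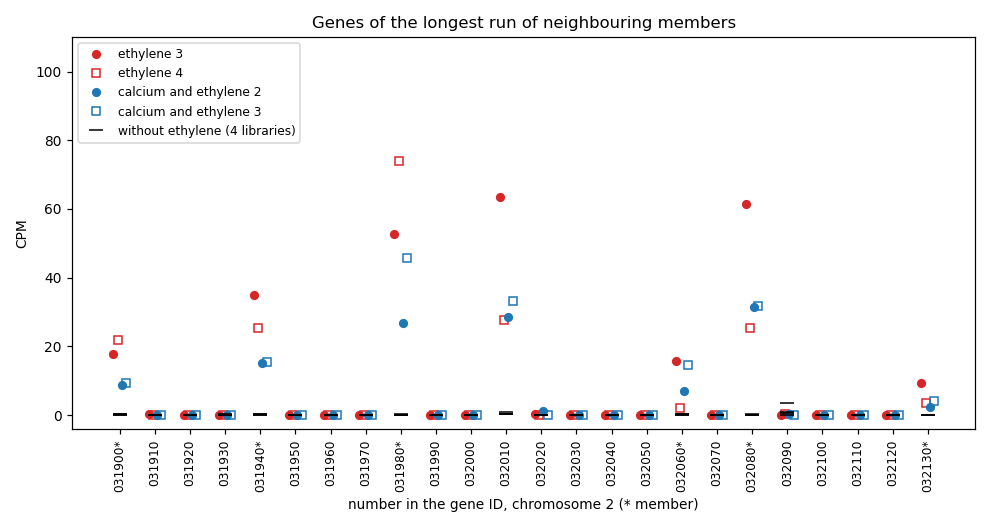
Points give the CPM of the 24 neighbouring IDs of the chromosome 2 window in the libraries with ethylene, and black dashes the 4 libraries without it; stars mark the 6 chosen genes. High points stand at the 6 starred IDs and at the unstarred AGIS_Os02g032010, up to 74.0 CPM, with IDs near 0 in between.

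The median length of the 52 genes was 1690 bases with quartiles of 946 and 1931, against 1829 bases and quartiles of 1298 and 2584 over the 19830 genes of 2 CPM or more in all 4 libraries. A length that is a multiple of 3, as a gene model without untranslated ends would have, was found for 23 of the 52 (44.2%), against 38.5% of those genes. Over all genes with a count in any library the median length was 1627 bases and this share was 54.2%. Over all genes of the table they were 1396 bases and 69.6%.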

How the data were processed

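Root tip poly(A) RNA of 8 libraries was sequenced. The authors deposited whole-number counts per gene and library, with a gene length. The submitters' processing notes name fastp and featureCounts as the tools. Aligner, genome build, annotation version and strandedness: not given in the sources used here. Reads shared by overlapping, antisense or near-identical genes may therefore be split wrongly. The rule's members and all lists were chosen with earlier results of these data known. CPM used each column's total. Members named are the 5 highest per kilobase, the 3 highest with no count without ethylene, the 2 most positive and 2 most negative calcium changes, the 2 widest ratios each way between ethylene libraries, the longest run, the longest and shortest gene, and 2 members and 2 other genes at each threshold. The rest were named after their values were seen. Counts were fitted in R 4.3.3 with edgeR 4.0.16 (filterByExpr with a minimum count of 10, TMM, 1 robust quasi-likelihood model of 4 groups over 8 libraries, 4 residual degrees of freedom), with Benjamini-Hochberg adjustment over 27008 genes and a threshold of 0.05. The fit was tested on simulated data. DESeq2 1.42.0, other scalings, filters and library sets were alternatives. No pair of libraries of a group agreed within sampling noise (chi-square per degree of freedom of 24.9 or more, with reads taken as independent). Figures used Python 3.11.15 and matplotlib 3.10.9.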

Additional observations from a re-analysis of the deposited data

How the results depend on the processing

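The 52 genes depended on the thresholds: 20 remained at 0.25 CPM without ethylene and 15 at 5 CPM with it, while 1 CPM without ethylene gave 112 genes and 1 CPM with it 109, each holding all 52. TMM and RLE scaling gave 55 and 57. Leaving out 1 library gave 54 to 159, with 159 without ethylene replicate 4. In calcium and ethylene against ethylene, the 0 called among the 52 became 1 without the filter on low counts (116 of 35620 genes in all) and 0 to 3 with 1 library left out, the 3 without ethylene replicate 3 (343 of 28283 in all). With the replicate block the count was 0 and the median log2 fold change -0.59 in place of -0.80; it was -0.94 to -0.61 with 1 library left out. The numbers were not taken to pair the libraries. Libraries with the same number deviated from their group means with a correlation of 0.015 for number 3 and of 0.10 to 0.18 for number 2. The 0.18 of number 1 repeats a value of number 2, since the 2 libraries of a group deviate by equal and opposite amounts. The count of genes with both calcium and ethylene libraries below both ethylene libraries was 29 to 39 with 1 library left out (25.8% to 34.1% of the 19830 genes, against 18.4% with all libraries), an alternative chosen after seeing the data. Of 266 single-gene values (19 genes, 14 alternatives), 241 kept their sign and side of the threshold, 4 kept their sign but were given no adjusted p by DESeq2, 4 gained the call and 17 changed sign, none of the latter called. With the block the sign changed for AGIS_Os12g001330 (-0.23), AGIS_Os07g002660 (0.96), AGIS_Os02g032060 (-0.086) and AGIS_Os09g042570 (0.25). With 1 library left out, log2 fold changes ran from -0.22 to 3.32 for AGIS_Os12g001330, -3.83 to 0.65 for AGIS_Os07g002660, -1.18 to 2.95 for AGIS_Os03g042160, -1.89 to 1.87 for AGIS_Os09g018290, -0.42 to 2.05 for AGIS_Os01g021280, -0.55 to 2.37 for AGIS_Os02g032060, -0.997 to 0.25 for AGIS_Os02g032080, -0.64 to 0.15 for AGIS_Os09g042570, -0.92 to 0.0089 for AGIS_Os06g012630 and -0.49 to 0.25 for AGIS_Os04g034220. The cause was not tested. Only 2 libraries a group and counts of 42 or more at the low end limit the precision of single genes.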
